A study of Homo sapiens with 4 samples.

Results

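The circadian clock genes described here are BMAL1, BMAL2, CLOCK, PER1, PER2, PER3, CRY1, CRY2, NR1D1 and NR1D2, 10 genes in all, taken by symbol from the annotation of the arrays (older symbols ARNTL and ARNTL2 for BMAL1 and BMAL2). Of these 10, 8 had a probe set that the annotation names, out of 14884 genes so named, and each of the 8 had 1 probe set. No probe set carries the name NR1D1 or NR1D2 in the table used, so these genes were not analysed here. The list was chosen on the log2 differences of BMAL2 between MIF-KO and CTR-KO cells, which had the same sign in both cell lines, and then filled with the known clock genes. The values of BMAL2 in that comparison, and those of the other clock genes, are therefore a description and were not tested.

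The arrays, 4 in number and of the whole-transcript kind, measured total RNA of MM.1S and ARP-1, established human cell lines of the plasma cell cancer multiple myeloma. MIF-KO cells carried a lentiviral short hairpin RNA against MIF, a secreted inflammatory cytokine, and CTR-KO cells carried a control hairpin. In both conditions the GFP-positive cells were sorted, and cells grew in RPMI1640 with 10% fetal bovine serum and antibiotics. There was 1 array for each line and condition, so a difference within a line has no replicate error, and p-values rest on n = 2 arrays per condition or line. With line and condition both in the model, the error behind such p-values is the disagreement of the lines in their differences. For each gene limma draws this error toward that of genes of similar intensity. The labels do not say whether cultures were separate, so part of that disagreement may be technical. The labels give no time of harvest, so the values below are levels at an unstated time and say nothing of a daily rhythm. A hairpin lowers a transcript and leaves the gene in place, so KO stands for a knockdown. In these bulk samples a change in the share of cells cannot be told apart from a change in RNA per cell.

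MIF had an intensity of 405 in MIF-KO and 1012 in CTR-KO cells of MM.1S (40.0% of control), and of 541 in MIF-KO and 1092 in CTR-KO cells of ARP-1 (49.6%). The free-text descriptions of the ARP-1 arrays name the opposite condition to the titles and genotype labels, and MIF was lower on the ARP-1 array titled MIF-KO. Median probe set intensities of the arrays lay between 13.1 and 13.3. The array of CTR-KO cells of ARP-1 was the outlying one: at least 4-fold differences separated it from the MIF-KO array of ARP-1 in 43 of the 7442 tested genes and from the CTR-KO array of MM.1S in 44, whereas the last 2 arrays differed that much in 2 genes. Of 8 plasma cell markers 6 were named and 5 passed the filter on low values, at log2 intensities of 11.8 to 12.1 (IRF4), 9.86 to 10.4 (XBP1), 7.52 to 8.88 (SDC1), 5.96 to 6.93 (SLAMF7) and 5.36 to 6.83 (CD38). Between MIF-KO and CTR-KO cells SDC1 differed by 0.48 in MM.1S and -1.36 in ARP-1, and CD38 by 0.46 and -1.44, while IRF4 differed by -0.0074 and 0.29, XBP1 by -0.05 and 0.51, and SLAMF7 by 0.37 and 0.02. Between the lines SLAMF7 differed by -0.77 (MM.1S minus ARP-1, limma adjusted p = 0.9999). The part of these shifts in the values of the clock genes was not tested. Of the markers of mature B, T, myeloid, fibroblast and epithelial cells that were named, CD8A alone passed it (5.09 to 5.70).

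The clock is a feedback loop of transcription. BMAL1 or its paralog BMAL2 pairs with CLOCK, binds E-box sequences and activates PER and CRY genes, whose proteins return to the nucleus and repress the BMAL and CLOCK pair. The nuclear receptors NR1D1 and NR1D2 form a second loop and repress BMAL1, against the activating retinoid-related receptors. Most cells of the body, immune cells included, carry this loop, and serum in culture medium can reset it.

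The promoters of these genes were searched for letters that clock factors are known to bind, and no binding was measured. RefSeq (GRCh38.p14) gave windows of 250 bases before to 50 bases after a transcription start for all 10 genes, with a pair of start sites for BMAL1, CLOCK, PER3, CRY2 and NR1D2. They were searched on both strands for the E-box CACGTG, the E-box-like CACGTT, the core AGGTCA that ROR and REV-ERB receptors bind, and the D-box in the forms TTATGTAA and TTACGTAA. None of these motifs overlapped another where it was found. Stretches upstream of the start are printed 5′ to 3′ along the gene. BMAL2 and CRY1 are shown because they had the widest differences between MIF-KO and CTR-KO cells. PER1 and PER2 are shown for their E-box and E-box-like elements. CRY1 also holds an E-box-like element, so of the printed genes BMAL2 alone holds none of the motifs. Capitals mark the E-box of PER1 and the E-box-like element of PER2 and, on the opposite strand, of CRY1.
BMAL2 (chr12:27332586-27332835, plus strand): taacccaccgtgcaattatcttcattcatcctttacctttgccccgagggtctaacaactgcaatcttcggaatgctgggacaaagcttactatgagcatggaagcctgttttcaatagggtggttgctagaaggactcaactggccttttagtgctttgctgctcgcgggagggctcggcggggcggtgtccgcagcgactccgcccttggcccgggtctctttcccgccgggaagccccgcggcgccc
CRY1 (chr12:107093550-107093799, minus strand): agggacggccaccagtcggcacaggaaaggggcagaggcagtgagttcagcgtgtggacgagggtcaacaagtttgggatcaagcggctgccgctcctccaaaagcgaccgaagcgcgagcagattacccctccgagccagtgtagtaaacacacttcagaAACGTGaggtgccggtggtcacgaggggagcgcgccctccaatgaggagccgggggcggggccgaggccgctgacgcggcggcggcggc
PER1 (chr17:8152547-8152602, minus strand): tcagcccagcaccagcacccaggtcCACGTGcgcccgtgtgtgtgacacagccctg
PER2 (chr2:238288777-238288832, minus strand): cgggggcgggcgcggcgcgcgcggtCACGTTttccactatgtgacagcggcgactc

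The E-box of PER1 began at base -173 from the start, and 7.26% of all 35116 promoter windows hold one. The E-box-like element began at -197 in PER2, at -187 in 1 window of CLOCK, at -89 in CRY1, at -188 in 1 window of CRY2 and at -168 in NR1D1, and 5.34% of all windows hold it. NR1D2 had E-boxes at -155 and -105 of its second start site. AGGTCA lay in windows of BMAL1, PER1 and CRY2 and in 13.8% of all windows. D-boxes lay in PER3 and NR1D2 (TTATGTAA, 0.886% of windows) and across the start of PER2 (TTACGTAA, 0.125%). The BMAL2 window held none of these letters.

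Among the activators, BMAL2 was higher with the MIF hairpin in both lines. Its intensity was 115 in MIF-KO and 64.8 in CTR-KO cells of MM.1S, 1.78 times control. In ARP-1 it was 104 in MIF-KO and 54.8 in CTR-KO cells, 1.91 times control. Both MIF-KO arrays lay above both CTR-KO arrays, as in 11.2% of all tested genes. The arrays of a condition lay closer to each other than to either array of the other condition. On the log2 scale BMAL2 averaged 6.78 ± 0.10 in MIF-KO and 5.90 ± 0.17 in CTR-KO cells (SD over the lines, n = 2 each). By its mean difference of 0.88 it ranked 23 from the top of the 7442 tested genes, by MM.1S alone 110 and by ARP-1 alone 319. These ranks follow the titles: with the ARP-1 arrays exchanged, as their descriptions would have it, the mean difference was -0.05 and the ranks were 4490 by the mean and 7124 by ARP-1 alone.

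BMAL1, the paralog that the textbook clock is built on, had small differences on the same arrays. It measured 82.4 in MIF-KO and 72.9 in CTR-KO cells of MM.1S, and 67.3 in MIF-KO and 66.3 in CTR-KO cells of ARP-1. The MIF-KO and CTR-KO values overlapped, with the lowest and the second lowest both in ARP-1. The log2 response of BMAL2 exceeded that of BMAL1 by 0.66 in MM.1S and 0.91 in ARP-1, which rests on 1 array per line and condition and was not tested. CLOCK, the partner of both, measured 185 in MIF-KO and 179 in CTR-KO cells of MM.1S, and 167 in MIF-KO and 186 in CTR-KO cells of ARP-1. Its log2 differences of 0.05 and -0.16 had opposite signs, and the first turned to -0.0065 under quantile normalization.

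**Figure D1:**
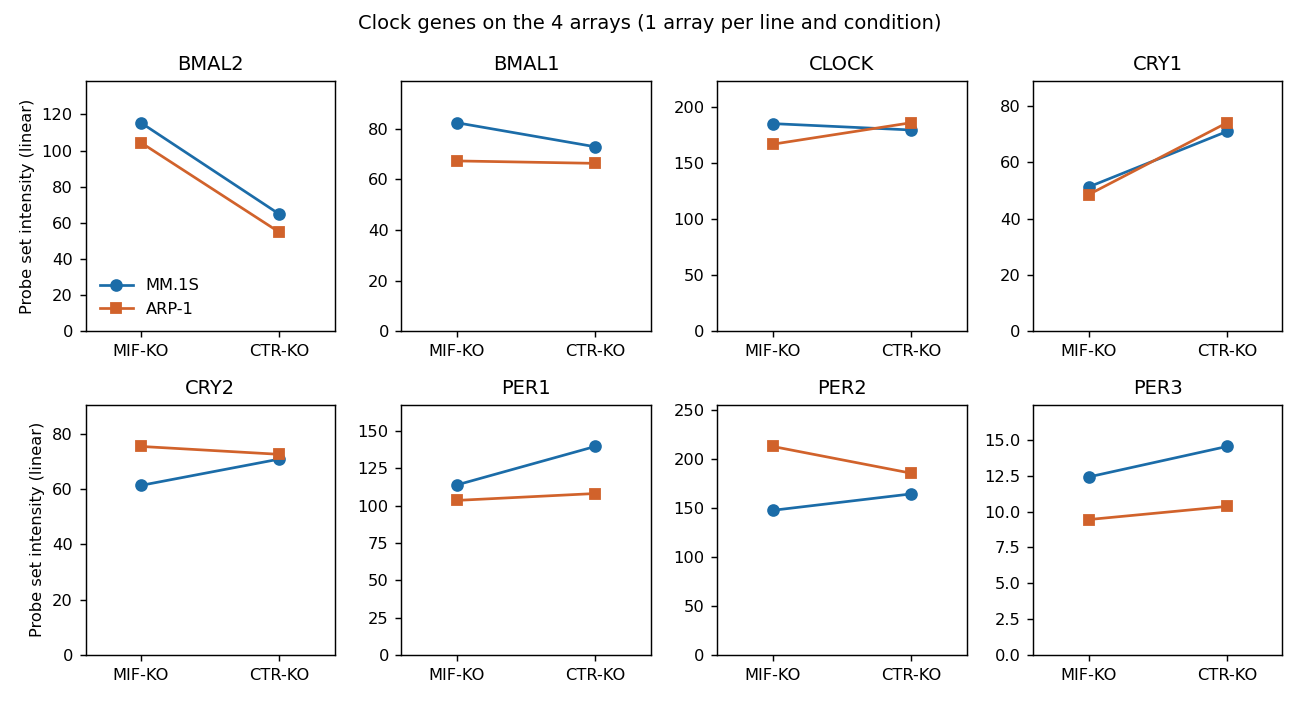
Linear probe set intensity (vertical axis, from 0, its own scale for each gene) of 8 clock genes in MIF-KO and CTR-KO cells, with circles for MM.1S, squares for ARP-1 and a line joining the arrays of a cell line. BMAL2 has both MIF-KO arrays (115 and 104) above both CTR-KO arrays (64.8 and 54.8), and CRY1 has both MIF-KO arrays (51.3 and 48.6) below both CTR-KO arrays (71.1 and 74.1).

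Of the repressors, CRY1 was lower with the MIF hairpin in both lines. CRY1 proteins, with those of PER, block the BMAL and CLOCK pair. Its intensity was 51.3 in MIF-KO and 71.1 in CTR-KO cells of MM.1S, 72.2% of control. In ARP-1 it was 48.6 in MIF-KO and 74.1 in CTR-KO cells, 65.5% of control. The groups did not overlap, as in the 9.47% of all tested genes that were lower without overlap. They averaged log2 5.64 ± 0.06 in MIF-KO and 6.18 ± 0.04 in CTR-KO cells (SD over the lines, n = 2 each). The mean log2 difference was -0.54, rank 61 from the bottom of the tested genes, with rank 408 in MM.1S and 814 in ARP-1. With the ARP-1 arrays exchanged its mean difference was 0.07 and its rank 4112 from the bottom.

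CRY2, the second cryptochrome, did not share this pattern of values. It measured 61.4 in MIF-KO and 70.9 in CTR-KO cells of MM.1S, and 75.5 in MIF-KO and 72.6 in CTR-KO cells of ARP-1. The groups overlapped, with log2 differences of -0.21 in MM.1S and 0.06 in ARP-1. The log2 response of CRY1 lay below that of CRY2 by a margin of -0.26 in MM.1S and -0.67 in ARP-1, again with no test.

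The PER genes, which encode the partners of CRY in the repressor complex, gave small differences. PER1, an early responder to resetting signals, measured 114 in MIF-KO and 140 in CTR-KO cells of MM.1S, and 104 in MIF-KO and 108 in CTR-KO cells of ARP-1. Its MIF-KO value was the lower one in each line (log2 -0.29 and -0.06), but the MIF-KO array of MM.1S lay above the CTR-KO array of ARP-1. PER2 measured 147 in MIF-KO and 164 in CTR-KO cells of MM.1S, and 213 in MIF-KO and 185 in CTR-KO cells of ARP-1. The PER2 differences (log2 -0.16 and 0.20) had opposite signs, so its mean of 0.02 describes neither line.

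PER3 was the dimmest clock gene relative to the filter and was not tested. Genes entered the tests at a mean log2 intensity of 4.97, the median of all gene means. PER3 had log2 values of 3.63 in MIF-KO and 3.86 in CTR-KO cells of MM.1S, and 3.24 in MIF-KO and 3.37 in CTR-KO cells of ARP-1. These lie around the median of all probe sets (3.72), so its differences of -0.23 and -0.13 are uncertain.

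Counted over the 7 clock genes that passed the filter, MIF-KO and CTR-KO arrays did not overlap in 2, BMAL2 (higher) and CRY1 (lower). Over all tested genes 11.2% were higher without overlap and 9.47% lower. At least 1.5-fold higher in MIF-KO cells was 1 of 7 in MM.1S (BMAL2), where 5.12% of all tested genes were, and 1 of 7 in ARP-1 (BMAL2), where 10.9% were. At least 1.5-fold lower were 0 of 7 in MM.1S (2.89% of all tested genes) and 1 of 7 in ARP-1 (CRY1, 11.9% of all). BMAL2 was the clock gene past 1.5-fold upward in both lines, as were 0.0269% of all tested genes (2 genes), and 0 of 7 were past it downward in both, as were 0.0537% of all. Since the genes were chosen with this comparison known, these shares are given as background and nothing is read from them. The median log2 difference of the 7 genes was -0.16 in MM.1S and 0.02 in ARP-1, beside 0.04 and -0.03 for all tested genes. Across all tested genes limma called 0 at an adjusted p below 0.05 (0%), and 29 had an unadjusted p below 0.05 (0.39%). The error of that fit is the disagreement of the lines, and the signs of the lines' differences were opposite in 67.6% of genes. Exchanging the ARP-1 arrays reverses each ARP-1 difference, so by arithmetic the signs were then opposite in 32.4%. In that fit 401 genes were called.

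**Figure D2:**
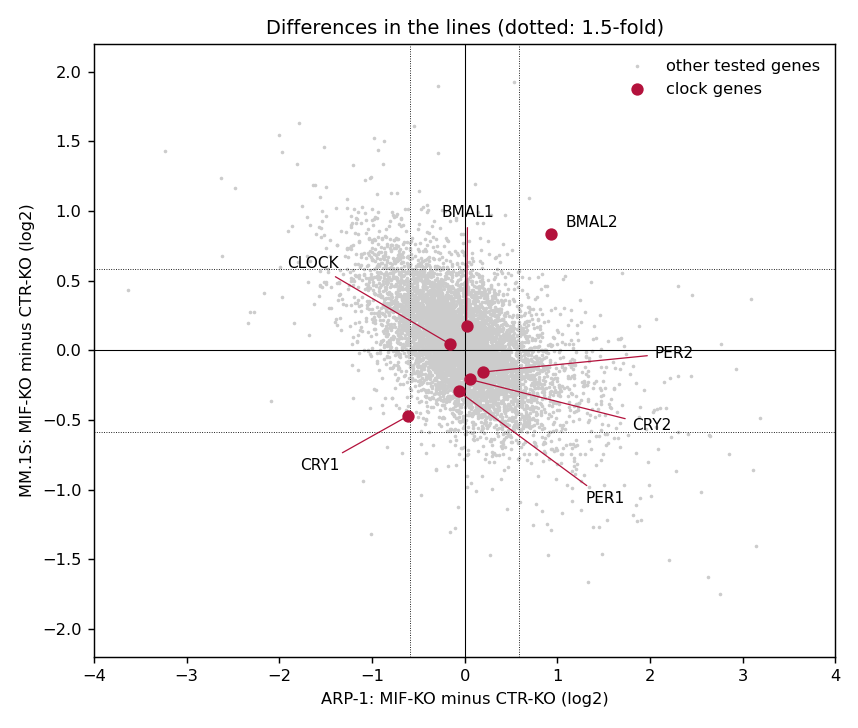
Log2 difference, MIF-KO minus CTR-KO, in ARP-1 (horizontal axis) and in MM.1S (vertical axis, which covers a narrower range of values). The 7442 tested genes are in grey and 7 clock genes in red, with dotted lines at 1.5-fold. BMAL2 lies at 0.93 in ARP-1 and 0.83 in MM.1S and CRY1 at -0.61 and -0.47, while BMAL1, CLOCK, PER1, PER2 and CRY2 lie between -0.29 and 0.20 in both lines.

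The genes whose profile over the 4 arrays came nearest to that of BMAL2 were sought by the root mean square difference in log2 intensity, after subtraction of each gene's own mean. They were UEVLD at 0.134, TOX at 0.145, IRAK1BP1 at 0.158, SVIL at 0.163 and NCR3LG1 at 0.176. For the other tested clock genes the nearest gene lay at 0.0091 (CLOCK) to 0.0282 (CRY1), so BMAL2 had no match that close. TOX is a DNA-binding protein of lymphocytes, SVIL (supervillin) binds actin, and NCR3LG1 (B7-H6) is a ligand for natural killer cells. UEVLD differed by 0.47 in MM.1S and 0.87 in ARP-1, and TOX by 0.55 and 0.83. All 5 had a smaller difference than BMAL2 in MM.1S, where they ranged from 0.40 to 0.55. Likeness over 4 arrays is a description of these arrays.

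The comparison of the lines asks whether the clock genes had different levels on the MM.1S and ARP-1 arrays. The genes other than BMAL2 were filled in as known clock genes and not by this comparison, though earlier results of these data were known. Over all 7442 tested genes the widest mean difference of the lines was 1.55 on the log2 scale. The lines differed at least 4-fold in 6 genes on the MIF-KO arrays and in 44 on the CTR-KO arrays. Of arrays of the same line, those of ARP-1 were that far apart in 43 genes and those of MM.1S in 0. The MIF-KO array of ARP-1 was at least 4-fold from the CTR-KO array of MM.1S in 2 genes. By this count it lay nearer to both MM.1S arrays than to the other ARP-1 array. Deviations of same-line arrays from the condition means correlated at r = -0.37 across genes. The differences below are thus between arrays labelled by line, and how far these arrays tell the lines apart was not tested. BMAL2 was left untested here too, since it was chosen for agreement between the lines, and that agreement enters the error of this fit. It averaged log2 6.43 in MM.1S and 6.24 in ARP-1, a difference of 0.19, and the arrays of the lines overlapped. The other 6 genes were tested with limma, condition being a term of the model, and 0 of 6 passed at an adjusted p below 0.05. Of all tested genes limma also called 0 (0%), with 87 at an unadjusted p below 0.05 (1.17%).

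PER2 had the widest of these differences, averaging log2 7.28 in MM.1S and 7.63 in ARP-1, a difference of -0.35 (SE 0.30, limma 95% interval -1.13 to 0.43, adjusted p = 0.9999). PER1 lay the other way, at 6.98 in MM.1S and 6.73 in ARP-1 (difference 0.25, interval -0.47 to 0.98). BMAL1 averaged 6.28 in MM.1S and 6.06 in ARP-1 (difference 0.21, interval -0.43 to 0.86), and CRY2 averaged 6.04 and 6.21 (difference -0.17, interval -0.82 to 0.49). In these 4 genes the MM.1S arrays did not overlap the ARP-1 arrays, upward in BMAL1 and PER1 and downward in PER2 and CRY2. Without overlap were also 15.8% of all tested genes upward and 11.6% downward. CLOCK differed by 0.05 (interval -0.72 to 0.82) and CRY1 by 0.01 (interval -0.60 to 0.62), both with overlap. The intervals reach beyond a 1.5-fold difference (0.58 on the log2 scale) in at least 1 direction for each of the 6 genes, so a difference of that size is within the error of 4 arrays.

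**Figure D3:**
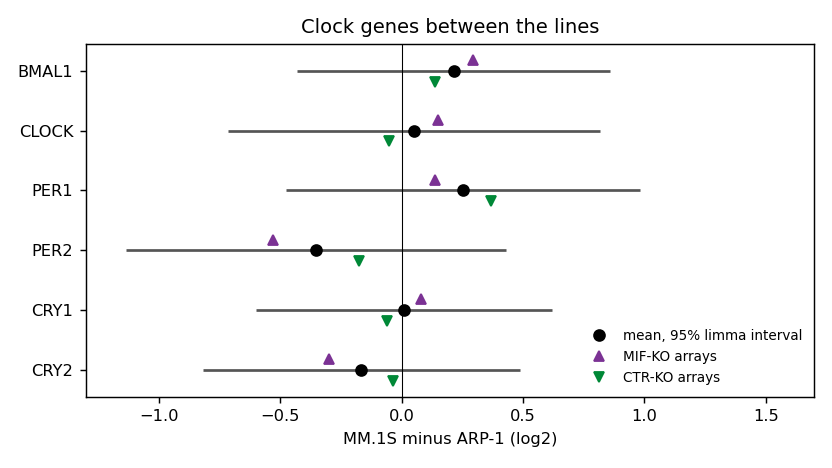
MM.1S minus ARP-1 on the log2 scale (horizontal axis) for 6 clock genes, as the mean with its 95% limma interval (black), on the MIF-KO arrays (upward triangles) and on the CTR-KO arrays (downward triangles). Every interval crosses 0, and PER2 is lowest at -0.35.

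Other genes of the clock pathway were taken from lists by role, 45 genes in all, of which 22 were named on the arrays and 18 passed the filter. In the comparison of the lines 0 of 18 passed the test in either direction. Their median log2 difference between MIF-KO and CTR-KO cells was 0.05 in MM.1S and -0.03 in ARP-1, beside 0.04 and -0.03 for all tested genes. Past 1.5-fold, 2 were higher and 1 lower in MIF-KO cells of MM.1S, and 3 were higher and 3 lower in those of ARP-1, where the shares of all tested genes were 5.12% and 2.89% in MM.1S and 10.9% and 11.9% in ARP-1. The signs were opposite between the lines in 13 of 18, against 67.6% of all tested genes and 3 of the 7 clock genes.

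DBP, a transcription factor of the PAR bZIP family and a textbook target of BMAL1 and CLOCK, had the widest difference of the 18 in MM.1S. Its log2 values were 7.71 in MIF-KO and 8.82 in CTR-KO cells of MM.1S, and 7.92 in MIF-KO and 7.14 in CTR-KO cells of ARP-1. DBP thus differed by -1.11 in MM.1S and 0.78 in ARP-1, with the extremes on the CTR-KO arrays. The related TEF, below the filter, differed by -0.55 and 0.75, and HLF, also below it, by -0.15 and -0.09. Of the retinoid-related receptors, RORB differed by -0.04 and -0.07, and RORA, below the filter, by -0.29 and 0.41. NPAS2, a paralog of CLOCK that also pairs with BMAL1, was dim, with log2 values from 2.88 to 3.23.

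Among the proteins that modify or bind PER and CRY, TIMELESS, which also acts at DNA replication forks, was widest apart. It had log2 8.11 in MIF-KO and 7.27 in CTR-KO cells of MM.1S, and 7.24 in MIF-KO and 8.39 in CTR-KO cells of ARP-1. The deubiquitinase USP2 showed the same crossing, at 0.66 in MM.1S and -0.69 in ARP-1. GSK3B, a kinase with clock proteins among its substrates, differed by -0.28 and -0.23, BTRC, a ubiquitin ligase subunit that recognises PER proteins, by 0.16 and 0.01, its relative FBXW11 by -0.12 and 0.26, and WDR5 by 0.34 and -0.56. The differences of 6 coregulators, from the acetyltransferases CREBBP, EP300 and KAT5 to SIRT1, HDAC3 and KDM5A, ran from -0.31 to 0.11 in MM.1S and from -0.32 to 0.69 in ARP-1.

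Of 7 known targets of clock factors 4 were named and tested, with a median log2 difference of 0.12 in MM.1S and 0.08 in ARP-1. VEGFA, the angiogenic growth factor, differed by -0.31 in MM.1S and 1.28 in ARP-1. NAMPT, an enzyme of NAD synthesis, differed by 0.15 and 0.58, the cell cycle kinase WEE1 by 0.36 and -0.41, and heme oxygenase HMOX1 by 0.10 and -1.01. On the CTR-KO ARP-1 array VEGFA (log2 6.48) was below and HMOX1 (8.54) above each of the other arrays (7.69 to 7.99 and 7.53 to 7.70). The part that this array has in the ARP-1 values was not tested.

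**Figure D4:**
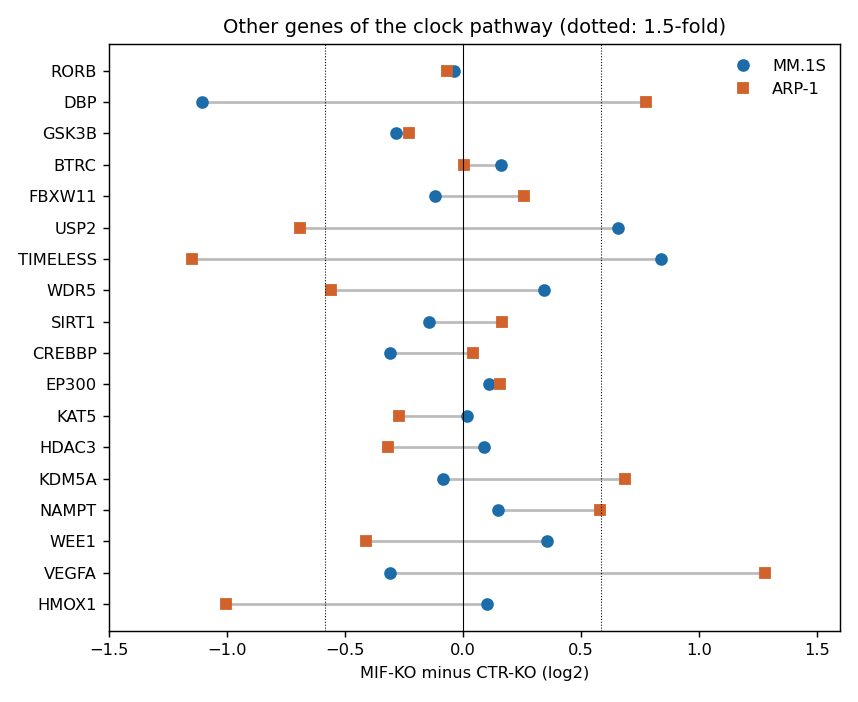
Log2 difference, MIF-KO minus CTR-KO (horizontal axis), for 18 other genes of the clock pathway, with circles for MM.1S, squares for ARP-1, 1 array per line and condition, and dotted lines at 1.5-fold. The markers fall on opposite sides of 0 in 13 genes, widest for TIMELESS (0.84 in MM.1S and -1.15 in ARP-1) and DBP (-1.11 and 0.78).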

How the data were processed

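The authors deposited linear intensity values (2.74 to 15935) of 53617 probe sets. The submitters' processing notes name RMA and limma without versions. Neither their background step nor a genome build is given in the sources used here. Log2 was taken with no pseudocount. A platform annotation named 1 gene for 16098 probe sets and none for 37519, and of several probe sets of a gene the brightest on average was used. Genes at or above the median gene mean were tested (7442 of 14884).

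limma (version 3.58.1, R 4.3.3) was fitted to all 4 arrays with cell line and condition as terms, then eBayes with a trend and Benjamini-Hochberg adjustment over all tested genes. The fit leaves 1 residual degree of freedom, and the prior added 3.99. Arrays are paired by cell line, from the labels; deviations of same-line arrays from the condition means correlated at r = -0.37 across genes. Groups follow titles and genotype labels. The fit was run on simulated data with known changes as a check of the code. The simulated arrays had independent noise and no disagreement of the lines, so how well the fit finds changes in these data was not tested. RMA gives no depth, and precision is limited by the number of arrays. The genes and lists were chosen with earlier results of these data known. Named are all clock genes, the 5 genes most like BMAL2 and the pathway genes with the largest differences; other pathway genes were named after their values were seen. Alternatives covered exchanged ARP-1 arrays, scaling, filter, probe set rule, prior, pairing and left-out arrays.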

Additional observations from a re-analysis of the deposited data

Results flagged for a closer look

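Several genes differed between MIF-KO and CTR-KO cells in opposite directions in the lines, as did 67.6% of all tested genes. Exchanging the ARP-1 arrays reverses the sign of every ARP-1 difference. By arithmetic that share then became 32.4% and these genes took a shared direction, which adds nothing to the 67.6%. There was 1 array per line and condition, so the difference between the lines was not tested. Given as the log2 response in MM.1S minus that in ARP-1, it was 0.20 for CLOCK, -0.35 for PER2 and -0.26 for CRY2 among the clock genes. Among the proteins that modify or bind PER and CRY it was 1.99 for TIMELESS, 1.35 for USP2, 0.90 for WDR5 and -0.38 for FBXW11. DBP stood at -1.88. For coregulators it was -0.77 (KDM5A), 0.41 (HDAC3), -0.35 (CREBBP), -0.31 (SIRT1) and 0.29 (KAT5), and for targets of clock factors -1.59 (VEGFA), 1.11 (HMOX1) and 0.77 (WEE1). In the clock genes that passed the filter with the same sign in both lines, it was -0.10 for BMAL2, 0.14 for CRY1, 0.16 for BMAL1 and -0.23 for PER1.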

How the results depend on the processing

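When the ARP-1 arrays were exchanged, the mean log2 difference between MIF-KO and CTR-KO cells turned to -0.05 for BMAL2, 0.07 for CRY1, 0.10 for CLOCK and -0.18 for PER2, and kept its sign for BMAL1, PER1, PER3 and CRY2. Then 0 clock genes passed 1.5-fold in a shared direction, and 401 genes were called between MIF-KO and CTR-KO cells. BMAL2 kept its direction and stayed past 1.5-fold in each line under median shifting and quantile normalization. Array medians were already close (13.1 to 13.3) and BMAL2 was chosen on this comparison, so no support is drawn from this. With 1 probe set, BMAL2 cannot change under the mean of probe sets. Without ARP-1, 1 clock gene passed 1.5-fold, and without MM.1S 2 did. Between the lines 0 of 6 clock genes were called in 11 of 12 alternatives, and 0 of 3 under the stricter filter (log2 6.35), which left BMAL1, CRY1 and CRY2 untested. The count over all genes was 0 to 18 when 1 array was left out, a choice made after seeing the data that drops the pairing term and assumes a lone array to vary like the others; the 18 came without MIF-KO ARP-1. Across these and the fits without the arrays of a condition, the difference of CRY1 between the lines, 0.01, turned to -0.30, -0.23 and -0.061 in 3 of them, and that of CLOCK, 0.05, to -0.029 and -0.051 in 2; the cause was not tested. Leaving out an array in the paired fit leaves no residual degree of freedom, hence no test. With no replicate block 0 genes were called in either comparison, with 41 (condition) and 208 (line) at an unadjusted p below 0.05, and a crossed pairing also called 0 (159 at an unadjusted p below 0.05).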
